A study of Homo sapiens with 6 samples.

Results

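The 9 genes described here encode the chains of major histocompatibility complex (MHC) class I molecules and the proteins that load them with peptide. They are HLA-B, HLA-C, HLA-E, HLA-F and HLA-G, which encode heavy chains, B2M, which encodes the shared light chain, and TAP1, TAP2 and TAPBP. They were taken by gene symbol from 11963 genes named on the array. All their probe sets were used, 25 in all, and no probe set annotated to several genes named a member. Of the 25 probe sets, 22 passed a filter on low signal, at least 1 for each of the 9 genes.

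The signals came from 6 arrays of total RNA, 2 for each of 3 populations of MDA-MB-231, a human triple-negative breast cancer line. S1a and S1b are labelled as the first and second isolated population of seeder cells, cancer cells that circulate and lodge again in a tumour already present, and the parental line is the population they are set against. No gene was altered and no agent was given according to the labels, and all 3 populations were grown subconfluent in DMEM with FBS. No population isolated in some other way was measured, so an effect of isolation and one tied to seeding cannot be told apart. The labels name biological replicates without saying that they were separate cultures, so p-values here cover only the spread from array to array.

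Class I molecules sit on the surface of nearly all nucleated cells and show peptides of the cell's own proteins to CD8+ T cells. Peptides cut by the proteasome are pumped into the endoplasmic reticulum by the TAP1-TAP2 transporter, and tapasin, the product of TAPBP, holds empty class I molecules beside it until a peptide fits. The heavy chain is stable at the surface only with beta-2 microglobulin, the B2M product. HLA-B and HLA-C are classical, highly polymorphic chains. HLA-E shows signal peptides of other class I chains to the NKG2A receptor of natural killer cells, HLA-G is best known from the placenta, and HLA-F is a less studied nonclassical chain. Type I interferons and interferon gamma raise most of these genes, and loss of class I is a known route by which tumours escape T cells.

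Of the 9 genes, 8 lie in the MHC on chromosome 6 (GRCh38.p14), and all are annotated as protein-coding. HLA-F lies at chr6:29723434-29738532, HLA-G at chr6:29826474-29831021, HLA-E at chr6:30489509-30494194, HLA-C at chr6:31268749-31272092 and HLA-B at chr6:31353875-31357179. TAP2 (chr6:32821831-32838739), TAP1 (chr6:32845209-32853704) and TAPBP (chr6:33299694-33314078) follow in the class II end of the complex. B2M alone lies elsewhere, at chr15:44711517-44718145.

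Promoter windows from RefSeq (GRCh38.p14) are shown for members that span the range of the changes reported below, from the largest (HLA-B) to the smallest (TAP2). Each runs 5′ to 3′ on the gene's own strand, from 250 bases before the annotated start through the first 50 bases of the gene. Capitals mark matches, on either strand, to the core of the interferon-stimulated response element (AAANNGAAA), to a kappa B motif (GGGANTNCC) or to the Y box CCAAT, and where matches overlap their capitals run together. The windows lie at chr6:31357130-31357429 (HLA-B, minus strand), chr6:31272043-31272342 (HLA-C, minus strand), chr15:44711267-44711566 (B2M, plus strand), chr6:32853655-32853954 (TAP1, minus strand) and chr6:32838690-32838989 (TAP2, minus strand). They are reference sequence and not that of this cell line.
HLA-B: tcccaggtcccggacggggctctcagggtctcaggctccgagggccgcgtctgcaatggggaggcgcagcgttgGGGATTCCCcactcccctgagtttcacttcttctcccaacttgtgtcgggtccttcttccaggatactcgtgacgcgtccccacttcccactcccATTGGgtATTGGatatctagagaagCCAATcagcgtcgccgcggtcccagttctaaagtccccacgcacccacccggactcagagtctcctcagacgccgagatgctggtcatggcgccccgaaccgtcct
HLA-C: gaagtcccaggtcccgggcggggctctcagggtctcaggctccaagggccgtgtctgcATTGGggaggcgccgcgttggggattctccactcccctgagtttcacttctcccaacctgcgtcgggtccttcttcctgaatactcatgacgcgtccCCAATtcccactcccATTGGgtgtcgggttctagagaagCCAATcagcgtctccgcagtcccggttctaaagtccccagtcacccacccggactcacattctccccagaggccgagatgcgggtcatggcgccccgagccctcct
B2M: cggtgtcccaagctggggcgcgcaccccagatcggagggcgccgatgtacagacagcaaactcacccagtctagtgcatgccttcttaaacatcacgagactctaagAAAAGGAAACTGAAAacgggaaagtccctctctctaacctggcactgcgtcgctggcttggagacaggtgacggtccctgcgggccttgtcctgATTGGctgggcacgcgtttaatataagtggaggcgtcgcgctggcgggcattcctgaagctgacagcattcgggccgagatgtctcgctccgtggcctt
TAP1: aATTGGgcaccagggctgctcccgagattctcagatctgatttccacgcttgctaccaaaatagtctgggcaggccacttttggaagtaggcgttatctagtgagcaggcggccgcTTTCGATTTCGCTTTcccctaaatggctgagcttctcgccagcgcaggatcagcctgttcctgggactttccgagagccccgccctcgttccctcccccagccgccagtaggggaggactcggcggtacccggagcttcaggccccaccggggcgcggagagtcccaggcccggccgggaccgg
TAP2: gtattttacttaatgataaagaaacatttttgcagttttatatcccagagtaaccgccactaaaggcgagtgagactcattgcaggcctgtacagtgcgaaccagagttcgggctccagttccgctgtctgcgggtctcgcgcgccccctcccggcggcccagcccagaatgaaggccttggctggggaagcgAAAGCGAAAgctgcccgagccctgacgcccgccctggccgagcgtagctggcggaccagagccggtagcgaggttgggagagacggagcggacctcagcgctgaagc

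The reference table held 11 such windows for 8 of the members. Windows of HLA-B and HLA-C were identical at 88.5% of aligned positions, and those of HLA-B and HLA-F at 79.7%. HLA-B was identical at 45.4% to the window of HLA-G, also a heavy chain, and at 49.4% to that of B2M. Only the window at each gene's annotated start was compared. The interferon-stimulated core was found in 5 of these 11 windows (1 each of HLA-F, B2M, TAP1, TAP2 and TAPBP), against 10.5% of all 35116 windows in the table. The Y box was found in 6 of the 11 windows, against 34.6% of all windows, and the kappa B letters in 2, those of HLA-B and TAPBP, against 4.35%. A gamma-activated site (TTCNNNGAA), present in 7.66% of all windows, was found in 1 window, a second one of TAP1. These matches describe letters in the windows and do not show binding. Only exact matches were counted, so a window without one can still hold a near match that was not marked.

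In the mean of the seeder isolates, each of the 9 genes had at least 1 probe set lower than in the parental line, and HLA-B, a heavy chain, fell most. Of the 22 tested probe sets, 21 were lower in the mean of S1a and S1b and none was higher with limma at an adjusted p under 0.05, where 22.6% of all 11860 tested probe sets were lower and 20.1% higher. The median change of the 22 was -1.88 on the log2 scale, beside -0.04 over all tested probe sets. All 4 isolate arrays lay below both parental arrays in 21 of the 22, where this held for 29.5% of all tested probe sets. Against parental, 21 were lower in S1a alone (18.6% of all) and 21 in S1b alone (20.1% of all); these 2 comparisons share the parental arrays. In S1a, TAP2 204769_s_at was level with parental cells (0.02), and 1 call each of TAP2 and HLA-E did not hold under other settings, as given below. In bulk RNA, fewer cells that express a gene and less RNA per cell cannot be told apart.

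Among the probe sets of HLA-B, the brightest, 209140_x_at, had signals of 2887 and 2900 in S1a and 2607 and 2610 in S1b, against 13707 and 17728 in parental cells. All 4 isolate arrays lay below both parental arrays, and the arrays of each isolate lay close together while the parental arrays lay further apart. The change in the mean of the isolates was -2.50 ± 0.0988 (log2, SE, limma adjusted p = 7.26e-08), and the parental mean of 15718 ± 2843 units was 5.71 times the isolate mean of 2751 ± 165 (SD, n = 2 and 4). The other HLA-B probe sets gave log2 changes of -2.69 ± 0.0958 (208729_x_at) and -2.43 ± 0.0911 (211911_x_at). In 208729_x_at the S1a signal was 16.3% and the S1b signal 14.5% of that in parental cells, the lowest shares among tested members. The HLA-B window printed above holds 1 kappa B match and 3 Y boxes.

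HLA-C, the other classical chain measured here, changed to a like extent. Its brightest probe set, 214459_x_at, had 3450 and 3559 units in S1a and 3431 and 3323 in S1b, against 14582 and 17837 in parental cells, a log2 change of -2.23 ± 0.0895 (limma adjusted p = 8.31e-08). The isolate arrays again lay in a narrow band far below the parental arrays. Its other 3 probe sets gave changes of -2.24, -2.39 and -2.36, so the 4 probe sets differed by 0.16 on the log2 scale. All 7 probe sets of HLA-B and HLA-C carry the suffix _x_at, which marks probes that can also bind related transcripts.

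**Figure D1:**
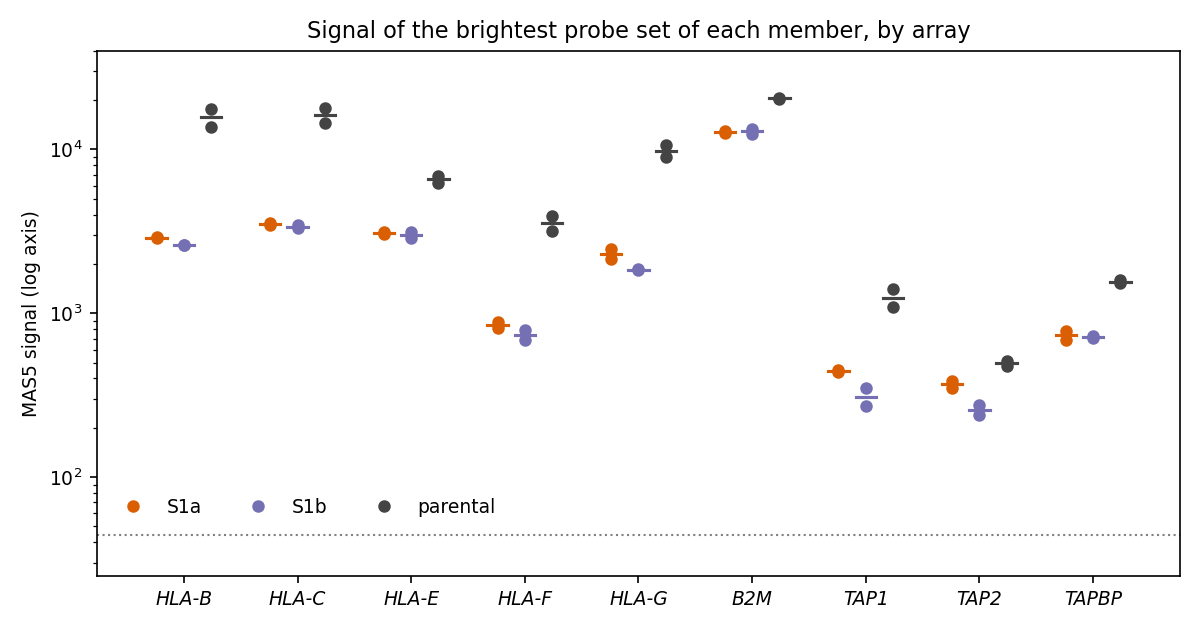
MAS5 signal (log axis) of the brightest probe set of each member on every array; points are arrays, short lines are means of 2 arrays, and the dotted line marks the low-signal filter at 44 units. All 4 isolate arrays lie below both parental arrays for the probe set shown of each of the 9 genes, as in 29.5% of all tested probe sets. The gap is wide for HLA-B, HLA-C, HLA-F and HLA-G and narrow for B2M and TAP2. A dimmer TAP2 probe set, 204769_s_at, is not shown and overlapped.

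The nonclassical chains did not all fall by the same amount. HLA-F gave -2.15 ± 0.105 and -2.02 ± 0.086 on the log2 scale (204806_x_at and 221875_x_at, limma adjusted p = 2.57e-07 and 9.96e-08). In 204806_x_at it had 885 and 813 units in S1a and 792 and 685 in S1b, against 3921 and 3182 in parental cells. Here the first parental array was the higher one, the reverse of the order in 20 of the 22 tested probe sets, and the groups were still well apart. The remaining HLA-F probe set, 221978_at, has no shared-probe suffix and did not pass the filter, with 21.7 and 38.9 units in S1a and 22.8 and 29.3 in S1b against 52.9 and 50.4 in parental cells. Since its isolate means lie below the filter of 44 units, only a bound of at least 1.17-fold lower can be given, so the HLA-F change rests on probe sets open to related transcripts.

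HLA-G had 4 probe sets, all with the suffix _x_at, and they gave changes of different size. Those of 211528_x_at and 211529_x_at, changed by -2.24 ± 0.0933 and -2.26 ± 0.102 on the log2 scale. In 211528_x_at the signals were 2142 and 2475 in S1a and 1861 and 1830 in S1b, against 8942 and 10666 in parental cells. The probe sets 210514_x_at and 211530_x_at changed less, by -1.48 ± 0.084 and -1.59 ± 0.0919. The spread of 0.78 among the 4 was the widest of any member. Because no HLA-G probe set is free of shared probes, how much of this signal comes from HLA-G itself was not tested.

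HLA-E showed the smallest fall among the heavy chains, and its size depended on the probe set. The probe set without a shared-probe suffix, 200904_at, had 1000 and 1038 units in S1a and 790 and 803 in S1b, against 1176 and 1479 in parental cells. The groups did not overlap, but the highest S1a array stood close to the lower parental array. Its log2 change was -0.55 ± 0.101 (limma adjusted p = 0.00163). The shared-probe sets 200905_x_at and 217456_x_at gave -1.10 ± 0.078 and -1.08 ± 0.0929, a larger change. Within each array, the log2 difference of 200905_x_at over 200904_at was 1.75 ± 0.19 in the isolates and 2.31 ± 0.14 in parental cells (SD, n = 4 and 2), with no overlap. An exact two-sided permutation test over arrays gave p = 0.133 (adjusted p = 0.155 over 7 such differences computed), the smallest that 4 against 2 arrays allow. In S1a alone the change of 200904_at was -0.37 ± 0.117 (limma adjusted p = 0.0316), a call that ended with median centring (-0.18), without the variance trend, and without parental replicate 2 (-0.21) or either S1a array.

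B2M, the light chain on which every class I molecule depends, had smaller log2 changes than HLA-B or HLA-C. In 201891_s_at it had 12649 and 13004 units in S1a and 13410 and 12393 in S1b, against 20190 and 20734 in parental cells. The arrays of each population lay close together and the isolates did not reach the parental level. The log2 changes were -0.67 ± 0.0781 and -0.83 ± 0.0747 for its 2 probe sets (limma adjusted p = 8.69e-05 and 1.64e-05), and the isolate signal of 201891_s_at was 62.7% of parental in S1a and 63.1% in S1b. The B2M window printed above holds 2 overlapping matches to the interferon-stimulated core and 1 Y box.

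**Figure D2:**
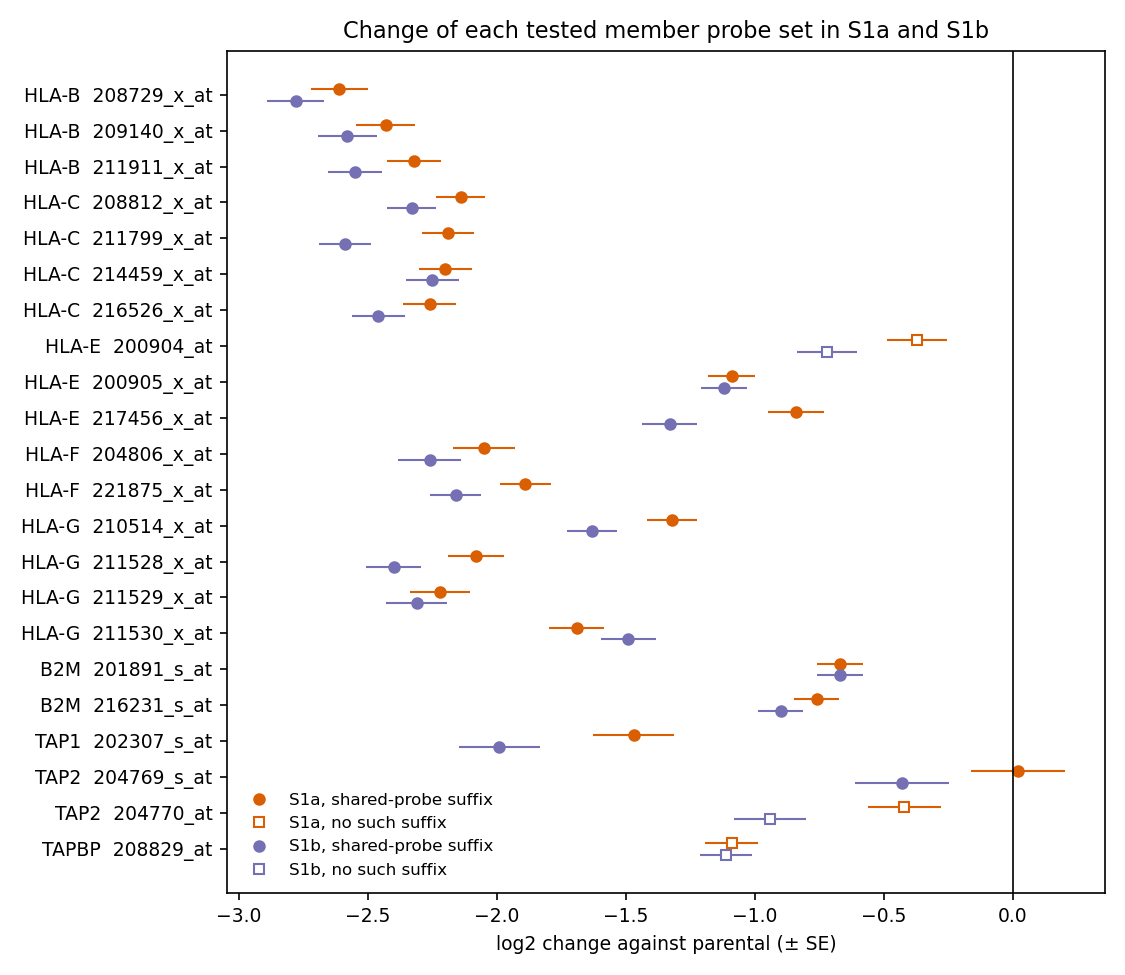
Log2 change of each tested member probe set in S1a and in S1b against parental, with SE from limma; filled circles carry a shared-probe suffix and open squares do not. HLA-B and HLA-C lie between -2.14 and -2.78, B2M between -0.67 and -0.90, and the TAP2 probe set 204769_s_at at 0.02 in S1a and -0.43 in S1b.

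Set within each array, HLA-B (209140_x_at) over B2M (201891_s_at) gave log2 differences of -2.13 and -2.16 in S1a and -2.36 and -2.25 in S1b, against -0.56 and -0.23 in parental cells. The difference fell by 1.83 on the log2 scale, with no overlap between the isolate and parental arrays. The same quantity fell by 1.56 for HLA-C (214459_x_at), by 1.48 for HLA-F (204806_x_at) and by 1.06 for TAP1, in each case with all isolate arrays below both parental arrays (exact two-sided permutation p = 0.133 each, adjusted p = 0.155, the smallest p being 0.133). For HLA-E (200904_at) the isolate and parental arrays overlapped, with a mean of -3.83 ± 0.22 in the isolates and -3.95 ± 0.21 in parental cells (SD, n = 4 and 2, exact permutation p = 0.533).

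**Figure D3:**
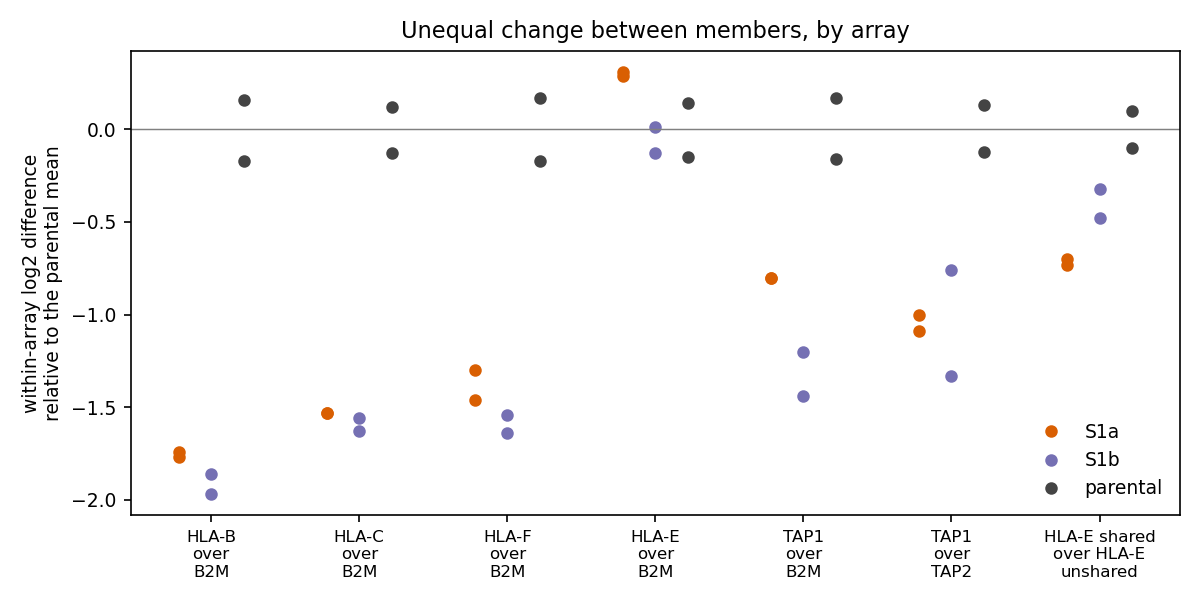
Log2 difference between 2 probe sets on the same array, shown relative to its parental mean (0), for 7 pairs; points are arrays. HLA-B, HLA-C, HLA-F and TAP1 over B2M lie below 0 on all isolate arrays, and HLA-E (200904_at) over B2M overlaps the parental arrays.

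Both transporter genes were lower, TAP1 by more than TAP2. TAP1, which encodes a chain of the paired transporter, had 436 and 448 units in S1a and 349 and 271 in S1b, against 1085 and 1402 in parental cells (202307_s_at). The isolates lay well below parental cells, and both S1b arrays below both S1a arrays. Its log2 change was -1.73 ± 0.136 for the mean of the isolates (limma adjusted p = 6.8e-06), -1.47 in S1a and -1.99 in S1b.

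TAP2, its partner, gave smaller changes. In 204770_at, which has no shared-probe suffix, it had 351 and 384 units in S1a and 238 and 274 in S1b, against 475 and 513 in parental cells, a log2 change of -0.68 ± 0.121 (limma adjusted p = 0.00125). In 204769_s_at it had 203 and 224 units in S1a and 143 and 168 in S1b, against 205 and 216 in parental cells. There S1a overlapped parental cells and only S1b lay below them, and the change of -0.21 ± 0.158 did not pass (adjusted p = 0.315). The S1a change of 204770_at, -0.42 ± 0.14 (adjusted p = 0.0379), did not pass without the variance trend, with no filter, under any other normalization or without any 1 of the S1a or parental arrays. The remaining probe set, 208428_at, lay below the filter, with 9.91, 6.2, 1.7 and 8.96 units on the isolate arrays and 35.2 and 1.82 on the parental arrays. Within each array, TAP1 over TAP2 (204770_at) was 0.26 ± 0.23 in the isolates and 1.31 ± 0.18 in parental cells on the log2 scale (SD, n = 4 and 2), without overlap (exact permutation p = 0.133).

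TAPBP, the gene of tapasin, had 689 and 776 units in S1a and 731 and 709 in S1b, against 1532 and 1589 in parental cells (208829_at). The isolates lay close to each other, with 46.9% of the parental signal in S1a and 46.1% in S1b, and a log2 change of -1.10 ± 0.0878 (limma adjusted p = 7.57e-06). Its second probe set, 210294_at, did not pass the filter and had 23.1 and 19.5 units in S1a and 7.43 and 7.09 in S1b, against 52.1 and 71.2 in parental cells, at least 1.4-fold lower. Neither TAPBP probe set carries a shared-probe suffix. In all, 3 of the 22 tested probe sets were without such a suffix, those of HLA-E, TAP2 and TAPBP, and all 3 were lower, with a median log2 change of -0.68. The 19 with a suffix had a median of -2.15, but they belong largely to other genes, so the suffix and the gene cannot be told apart except within HLA-E and TAP2.

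The isolates were not shown to differ from each other in any member. Of the 22 tested probe sets, 0 passed with limma for S1b against S1a, where 1.31% of all tested probe sets were called and 1.07% were called lower in S1b. At an unadjusted p under 0.05 there were 9, all lower in S1b, beside 14.0% of all tested probe sets. Point estimates were lower in S1b for 20 of the 22. The closest to the threshold was HLA-E 217456_x_at, with 847 and 833 units in S1b against 1085 and 1299 in S1a, a change of -0.50 ± 0.107 (adjusted p = 0.0544). It was followed by HLA-C 211799_x_at, with -0.40 ± 0.101 (adjusted p = 0.0958). Other settings called 0 to 2 member probe sets, these 2 only.

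Genes that work beside the members in the peptide supply changed in part. The immunoproteasome subunits PSMB9, PSMB8 and PSMB10, which replace the catalytic subunits of the constitutive proteasome, all fell in the mean of the isolates. PSMB9, a neighbour of TAP1, averaged 809 units in S1a and 456 in S1b against 1452 in parental cells (log2 change -1.25 ± 0.0961, limma adjusted p = 5.88e-06), and it was also lower in S1b than in S1a (adjusted p = 0.00604). PSMB8 changed by -0.92. PSMB10 changed by -0.62 in the mean of the isolates, but its S1a change of -0.27 did not pass (adjusted p = 0.0743) and it was lower in S1b than in S1a by -0.70 (adjusted p = 0.0116). The 5 other probe sets of the list, for the activator subunits PSME1 and PSME3, did not pass. In all, 37.5% of the list's 8 probe sets were lower, against 22.6% over all tested probe sets. Of the 3 constitutive catalytic subunits, PSMB6 rose by 0.40 (adjusted p = 0.00287), while PSMB7 at -0.23 and PSMB5 at -0.04 did not pass.

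Of 17 probe sets of 10 genes for chaperones, the Sec61 channel and peptide trimming in the endoplasmic reticulum, 8 were lower and none higher. The lower share was 47.1%, where 22.6% of all tested probe sets were lower and 20.1% higher. The median log2 change of the list was -0.36. The smallest p was that of the chaperone HSPA5 (BiP), with -0.76 (limma adjusted p = 5.61e-05). The largest fall among those called, named after its values were seen, was in the trimming enzyme ERAP1, at least 2.3-fold lower in 209701_at, with -0.26 and -0.37 in 2 probe sets that did not pass. CANX, the lectin chaperone calnexin that binds new heavy chains, changed by -0.52 and -0.32 in 2 probe sets that passed and by -0.24 in 1 that did not. HSP90B1 (-0.36 and -0.59) and the channel subunit SEC61B (-0.43) were lower as well. The difference between this list and the members was not tested.

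Class I-like chains and stress ligands were also measured. Of 20 probe sets for 7 class I-like or stress ligand genes, 15 were lower and 1 higher, with a median of -1.0. These shares were 75.0% lower and 5.0% higher, against 22.6% and 20.1% over all tested probe sets. However, 13 of the 20 were probe sets of HFE, the iron-regulating class I-like chain, and they are not separate genes. MICA and MICB, ligands of the activating receptor NKG2D, changed by -0.97 and -0.79 (limma adjusted p = 9.24e-05 and 6.26e-05). PROCR, the protein C receptor with a class I-like fold, rose by 0.74.

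Of 30 probe sets for 15 transcriptional regulators, 9 were lower (30.0%, against 22.6% over all tested probe sets) and 4 higher (13.3%, against 20.1%), with a median of -0.17. These shares lay near those over all probe sets. NFYA, a subunit of the Y-box binding factor NF-Y, had 4 probe sets and all were lower, by -0.97 to -1.05. Its partners rose, NFYB by 0.54 and 0.38 with another probe set at 0.29 that did not pass, and NFYC by 0.59 in 1 of 4 probe sets. RFXANK, a subunit of the RFX complex, rose by 0.53 (adjusted p = 0.00251). Some entries of these lists were not analysed here, among them NLRC5, ATF1, USF1, PSME2 and ULBP3.

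Of 13 probe sets for interferon receptor chains, their kinases and the feedback inhibitors SOCS1 and SOCS3, 6 were lower (46.2%, against 22.6% over all tested probe sets) and 1 higher (7.69%, against 20.1%), with a median of -0.41. IFNGR2, a chain of the interferon gamma receptor, averaged 593 units in S1a and 497 in S1b against 1256 in parental cells (-1.20, limma adjusted p = 5.73e-06). IFNAR2, a chain of the type I interferon receptor, changed by -0.69 and -1.0, and the kinase JAK1 by -0.41. SOCS1 was at least 2.58-fold lower in 210001_s_at, while its other tested probe set, at -0.55, did not pass. The probe set called higher, named after its values were seen, was SOCS3 206359_at, at least 1.92-fold higher (limma adjusted p = 0.0235). SOCS3 206360_s_at gave -0.04. In S1a alone, no probe set of this list was called higher, where 16.8% of all tested probe sets were.

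**Figure D4:**
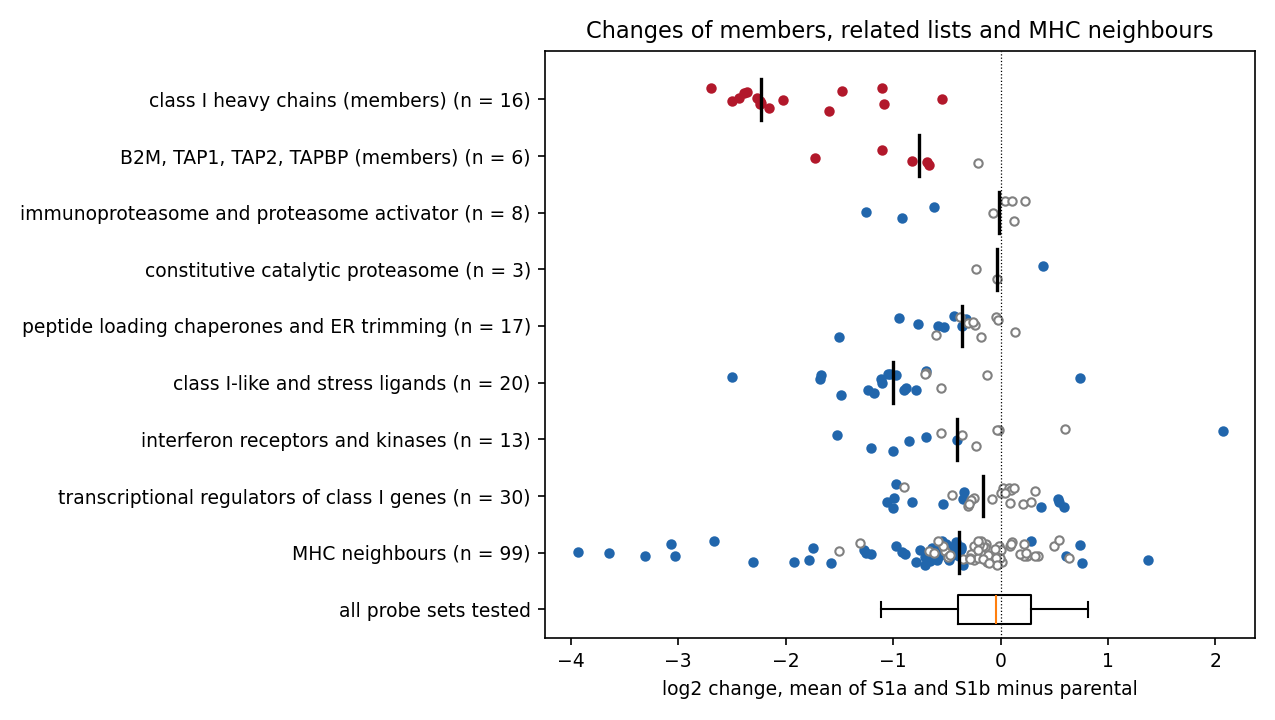
Log2 change in the mean of S1a and S1b against parental for each tested probe set of the members (red), of related lists and of other MHC genes (blue); filled points passed the threshold, open points did not, and black lines are medians. The box for all tested probe sets spans the quartiles, with whiskers from the 5th to the 95th percentile. The heavy chains have a median of -2.23, the other members of -0.75 and the MHC neighbours of -0.38.

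Many other genes lie among the 8 members on chromosome 6, and 45.5% of their probe sets were lower. Of 99 tested probe sets of 66 other genes that start between HLA-F and TAPBP, 45 were lower (22.6% over all tested probe sets) and 5 higher (20.1%), with a median log2 change of -0.38. The median was -0.41 from HLA-F to HLA-B, -0.37 from HLA-B to TAP2 and -0.38 from TAP2 to TAPBP. The falls were led by HCP5, a noncoding gene between MICA and MICB (at least 3.63-fold lower), and by class II chains. In the mean of the isolates, HLA-DPA1 was at least 11-fold lower in 211990_at and at least 3.1-fold lower in 211991_s_at. HLA-DRA changed by -3.03 in 208894_at and was at least 7.89-fold lower in 210982_s_at, and HLA-DRB1 changed by -3.07. The neighbours that rose were HSD17B8, a steroid dehydrogenase (1.37), GPSM3 (0.76), LY6G5C (0.74) and MRPS18B, a mitochondrial ribosomal protein (0.60 and 0.28 in 2 probe sets). With class II and other HLA genes and the listed genes left out, a choice made after the values were seen, 31 of 84 probe sets were lower and 5 higher, with a median of -0.29. B2M, the member on another chromosome, was also lower, as given above. Copy number was not measured.

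**Figure D5:**
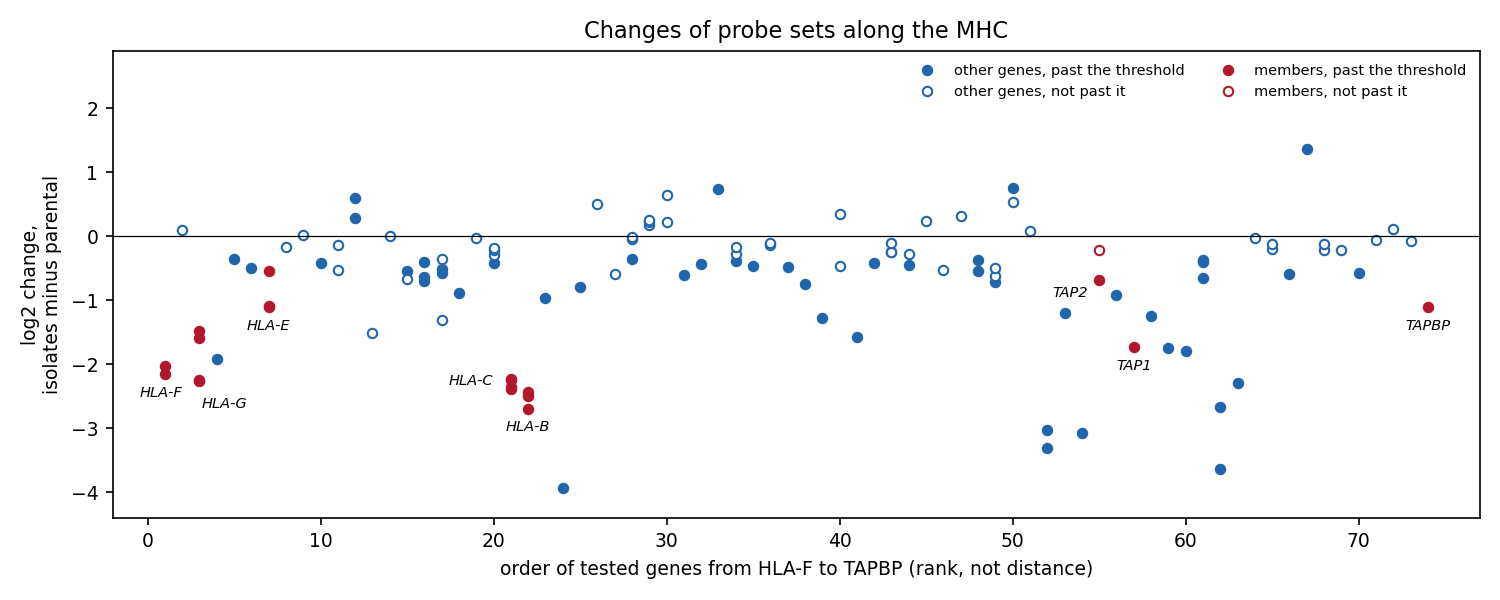
Log2 change, mean of S1a and S1b minus parental, of tested probe sets on chromosome 6 from HLA-F to TAPBP, placed by gene order and not by distance; red points are members, blue points other genes, and open points did not pass the threshold. HLA-B and HLA-C stand below most genes around them, and the class II genes between HLA-B and TAPBP reach -3.64.

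Among genes outside the related gene lists, with MHC neighbours kept in, the 5 whose pair of changes lay nearest to the members' median pair (-1.47 in S1a and -1.99 in S1b, from the brightest probe set of each of the 9 genes) were PDE8B, LAMP2, HLA-DMA, P4HA2 and FAM114A1. Likeness was the straight-line distance between the 2 log2 changes over 3 populations. HLA-DMA, a class II peptide-exchange chain, changed by -1.53 in S1a and -2.04 in S1b. LAMP2, a lysosomal membrane protein, changed by -1.53 in S1a and -2.0 in S1b. The S1b mean of PDE8B lay below the 44-unit filter, so its S1b change is a bound of at least 3.06-fold lower and its place in this order is not defined. The distances of the other 4 genes ran from 0.063 to 0.153.

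Of the markers of the line, VIM, CD44, EGFR, CAV1 and AXL each had a probe set above 44 units on every array. Of their 18 tested probe sets, 9 were lower in the mean of the isolates and 3 higher. Over all tested probe sets, 22.6% were lower and 20.1% higher. The 9 lower ones came from 2 genes, CD44 and CAV1, and the 3 higher ones from 1, EGFR, so they are not separate genes. No probe set of VIM or AXL passed. CD44 changed by -1.12 in 209835_x_at (limma adjusted p = 1.48e-06) and CAV1 by -0.51 in 203065_s_at, while EGFR rose by 0.81 in 201983_s_at. Markers that such lines lack, ESR1, PGR and ERBB2, summed to between 185 and 243 units on the isolate arrays and 282 and 308 on the parental arrays. Of 14 leukocyte markers, 12 had a probe set. Summed, they came to 198 to 275 units on the isolate arrays, against 410 and 418 in parental cells. From 0 to 4 of the 12 reached 44 units on any array. The pan-leukocyte marker PTPRC reached at most 34 units and CD3D 34.7, while the highest signals of CD2 (73.6), CD3E (54.7) and MS4A1 (44.4) passed 44 units. CD14, the only leukocyte marker that passed the filter, reached 103 units on 1 array. Its log2 change passed in the mean of the isolates (-1.08, limma adjusted p = 0.0367) and in S1b (-1.57), but not in S1a (-0.59). No leukocyte marker reached 44 units on either S1b array, so the sizes of the changes that include S1b depend on the pseudocount. A list of 10 endothelial and stromal markers summed to 350 to 503 units on the isolate arrays, against 461 and 338 in parental cells. The summed leukocyte signals moved in the same direction as the members, though most of these markers lay under 44 units. Their part in the result was not tested.

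Of the technical values, the array medians and the GAPDH ratio separated the groups, while the poly-A means overlapped and the trimmed mean was the same. Every array had a trimmed mean of 500.2 units, and medians ran from 87.6 to 91.7 on the isolate arrays against 106 and 98.6 on the parental arrays. The poly-A spike-in probe sets, added before labelling, averaged 7.61 to 8.08 on the log2 scale on the isolate arrays and 7.12 and 7.75 on the parental arrays. The 3′ probe set of GAPDH divided by its 5′ probe set gave 0.976 to 0.998 on the isolate arrays and 1.06 and 1.09 on the parental arrays. The part of these differences in the result was not tested. In 20 of the 22 tested member probe sets the second parental array was the brighter one, with ratios to the first from 0.812 to 1.29, and with either parental array left out 21 probe sets stayed lower.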

How the data were processed

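Total RNA of 6 biotin-labelled samples was measured on Affymetrix arrays. The deposited values were intensities, 1 linear MAS5 signal per probe set and array, per the submitters' processing notes; the version is not given in the sources used here. No detection calls were used. Precision is limited by the number of arrays, 2 a group.

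Of 22277 probe sets, 62 controls were left out. The platform's annotation gave 1 symbol for 19064, several for 1043 and none for 2108, and symbols were updated through RefSeq gene identifiers (GRCh38.p14), which matched 19052. Signals were analysed as log2(signal + 3.949), the pseudocount being the 10th percentile of all signals, so changes of dim probe sets are understated. Probe sets averaging under the 40th percentile (44 units) were left out, and 11860 probe sets of 7791 genes were tested, each on its own. A fold against a group under 44 units is the bright mean over 44, given as "at least".

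A model of 3 group means was fitted over the 6 arrays by limma 3.58.1 (R 4.3.3), using the variance trend, Benjamini-Hochberg adjustment over all 11860 probe sets per contrast and a threshold of 0.05. The script was tested on simulated data. Alternatives were other pseudocounts (1 and 32), no filter or one at the 60th percentile, median centring, quantile and cyclic loess normalization, no variance trend, array weights, the brightest probe set per gene, no shared-probe suffixes, each array left out and the replicate number as a block. Same-numbered arrays did not deviate together (r = 0, -0.041 and -0.06 across probe sets), and the reported fit did not pair them. Whether same-numbered arrays were handled together cannot be read from these values.

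The members and all lists were chosen with earlier results of these data known. All members were named, with up to 4 genes of each list by smallest p, up to 4 MHC neighbours in each direction by size among those called, and the 5 genes nearest in pattern.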

Additional observations from a re-analysis of the deposited data

How the results depend on the processing

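For the mean of the isolates against parental cells, 21 of 22 tested member probe sets were lower under every alternative that tested the same probe sets, and their direction turned under none. The counts otherwise followed what was tested, with 22 lower of 25 with no filter, 21 of 21 with the filter at the 60th percentile, 9 of 9 with the brightest probe set per gene and 3 of 3 with shared-probe suffixes left out, counts that were the same for S1a alone and S1b alone in the last 2 settings. In S1a alone, 19 to 21 of the 22 were lower in the settings that tested all 22, TAP2 204770_at and HLA-E 200904_at being the ones lost. The replicate block left 21 lower and called 87 probe sets in all for S1b against S1a, where the reported fit called 155. For that contrast, 0 member probe sets were called in the reported fit, 1 with a pseudocount of 32 or the filter at the 60th percentile, 2 with array weights, and 0 to 2 with 1 array left out.

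Counts over all probe sets moved as well. With suffixes left out, 2232 were called for the mean of the isolates, 1870 for S1a, 2016 for S1b and 54 for S1b against S1a. For the last contrast, 77 were called with no filter, 5 without the variance trend and 389 with array weights, and 38 to 385 with 1 array left out, 385 and 384 of them without either parental array. With 1 array left out, 2622 to 3942 were called for S1a, fewest without either S1a array, and 2989 to 4295 for S1b, fewest without S1b replicate 1. Median centring moved the median of all probe sets to 0.148 and the share of calls that were higher to 70.1%, from 47.1%, and left 21 member probe sets lower. A group left with 1 array was assumed to vary like the others. No cause of these moves was tested.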
